A study of Gallus gallus with 4 samples.

Results

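Preovulatory granulosa cells of the chicken that received a FOXL2 plasmid were compared with the same cell type that received the empty plasmid. Both libraries came from granulosa cells of the F2 to F4 follicles of hens aged 26 weeks. The cells were cultured for 18 h in M199 medium with 5% fetal bovine serum, transfected by lipofection with pcDNA3.1-FOXL2 or with pcDNA3.1 alone, and harvested 48 h later for RNA sequencing. The series also holds a prehierarchical pair, granulosa cells of small yellow follicles treated in the same way, for 4 libraries in all. Each of the 4 groups had 1 library. There is therefore no replicate error for any value below, and differences are described by size and level without p-values. The labels state neither the number of hens or cultures behind a library nor the share of cells that took up the plasmid. The transfection was transient.

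FOXL2 is a forkhead transcription factor that, in mammals, maintains granulosa cell identity and acts on genes of steroid synthesis and of the activin and follistatin system. In the hen, follicles selected into the hierarchy grow one after another towards ovulation, and their granulosa cells acquire responsiveness to luteinizing hormone and produce progesterone. Granulosa cells of small yellow follicles stand before that selection. The comparison asks which transcripts differ when cells that have already passed selection receive a FOXL2 plasmid. The tables pair no Ensembl identifier with a gene name, and the gene table used here holds no Ensembl identifier. The level of FOXL2 itself, granulosa markers and markers of theca, endothelial, immune, red blood or germ cells were therefore not analysed here, so neither the plasmid label nor the cell type was checked against its genes.

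Genes were retained when their mean over the preovulatory pair was at least 1 FPKM (fragments scaled to transcript length and to the mapped fragments of the library), which gave 10467 of the 13819 genes listed for any library. The lowest mean inside this limit was 1 FPKM and the highest outside it was 0.995 FPKM. There were 12709 genes in the control table and 12600 genes in the FOXL2 table. Of the 13218 genes listed in either, 12091 were in both, 618 only in the control table and 509 only in the FOXL2 table. Among the 10467 retained genes, 10439 were listed in both, and 14 were missing from each table and taken as 0. The value columns of the preovulatory control and of the prehierarchical FOXL2 library carry a number at the end of their header (1 and 2), whereas those of the other 2 libraries do not. The labels do not explain these numbers, and their part in the results was not tested.

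The preovulatory libraries were close to each other over most genes. The log2 ratio of (FPKM + 1), FOXL2 over control, had a median of 0.00, quartiles of -0.17 and 0.17 and an SD over genes of 0.34. FOXL2 was above control for 5216 genes, below it for 5231 and equal for 20. Within 1.5-fold lay 93.4% of the genes. The prehierarchical pair gave 93.0% within 1.5-fold and an SD of 0.35 over the same genes, close to the preovulatory values. Of the 100 most abundant genes of each preovulatory library, 93 were shared.

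At least 2-fold higher with FOXL2 were 53 genes (0.506% of 10467), and 104 (0.994%) were at least 2-fold lower, so lower genes outnumbered higher ones. In such bulk cultures, fewer cells of a type and less RNA per cell cannot be told apart. At 1.5-fold the numbers were nearer, with 314 higher (3%) and 375 lower (3.58%). At 4-fold they were 8 higher (0.0764%) and 6 lower (0.0573%). The 2-fold lists end at log2 ratios of 1 and -1. The nearest genes left out stood at 0.994 on the higher side and at -0.997 on the lower side. Both numbers at 2-fold move by over 1.5 times with the pseudocount. A pseudocount of 0.1 FPKM gave 122 higher and 184 lower genes, and one of 5 FPKM gave 7 and 20. A retained gene missing from 1 table and taken as 0 there always passes 2-fold, because of the filter on the mean. Such genes made up 14 of the 53 higher genes (26.4%) and 14 of the 104 lower genes (13.5%), against 0.268% of all. With only genes listed in both tables, 39 were higher and 90 lower.

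**Figure D1:**
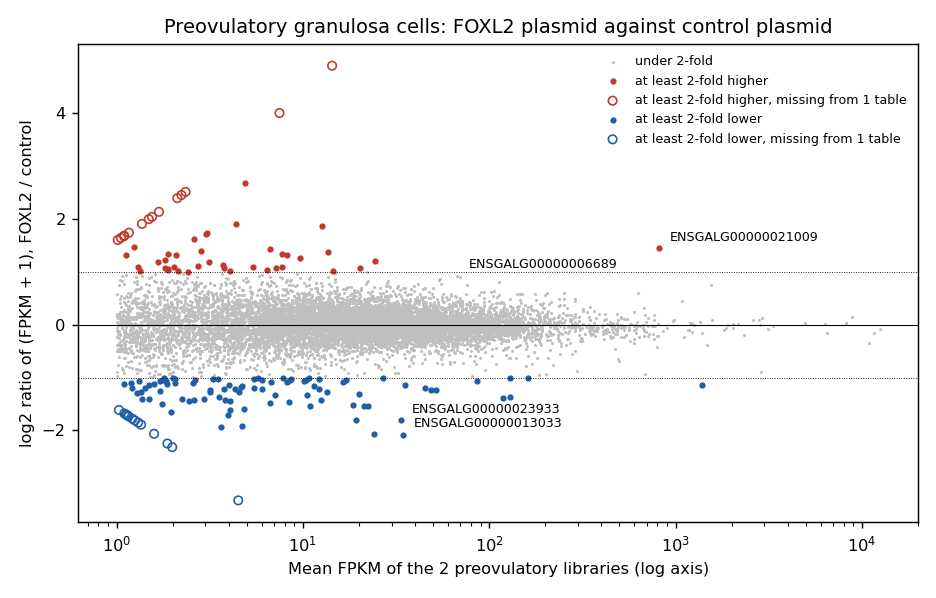
Each point is 1 of 10467 genes; the horizontal axis gives the mean FPKM of the preovulatory pair on a log axis and the vertical axis the log2 ratio of (FPKM + 1), FOXL2 over control. Dotted lines mark 2-fold, open circles mark genes missing from 1 of the tables, and the 4 genes named in the text are labelled; most 2-fold points lie at low level, and above 30 FPKM nearly all of them lie on the lower side.

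The genes that were 2-fold apart were mostly weakly expressed. The higher genes had a median of 0.89 FPKM with control and 4.46 with FOXL2, and the lower genes had 6.53 and 1.85 FPKM, against 18.9 and 19.1 FPKM for all retained genes. Under a mean of 5 FPKM lay 69.8% of the higher genes, 57.7% of the lower genes and 18.4% of all. Of the 53 higher genes, 30 were under 1 FPKM with control, and of the 104 lower genes, 39 were under 1 FPKM with FOXL2. Of all 10467 retained genes, 118 were under 1 FPKM with control and 153 with FOXL2. A 2-fold call itself favours a low value in 1 library, so the counts of the lists follow in part from the selection. The share of genes 2-fold apart in either direction went from 5.80% at 1 to 3 FPKM to 2.31% at 3 to 10, 0.715% at 10 to 30 and 0.252% at 30 to 100 FPKM, and stood at 0.698% at 100 FPKM and over.

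How many fragments lie behind a low value can be read only roughly. Among 468 single-transcript genes missing from at least 1 of the 4 tables and with nearly equal lowest listed values, that value had a median of 0.22 FPKM (quartiles 0.12 and 0.365). If it stands for 1 fragment, 1 FPKM is about 4.55 fragments for such genes. Ratios within the preovulatory pair were set against simple fractions from 1/3 to 3. The median of the ratios near 0 was first subtracted, which centres the ratios on the fraction 1. This shift was -0.0145 log2 units at 0.15 to 3 FPKM and 0.000768 at 10 to 30 FPKM. Of 2125 single-transcript genes at 0.15 to 3 FPKM, 38.4% then lay within 0.06 log2 units of such a fraction. At 10 to 30 FPKM it was 23.5% of 2857 genes. The fractions include 1, so genes without a change are counted too. The spread of the ratios also differs with level, and no share expected without such steps was computed. The 2 shares therefore cannot show whether low values move in steps. If the lowest listed value does stand for 1 fragment, a 2-fold gap near 1 FPKM may be a gap of few fragments.

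Lower genes outnumbered higher ones at 2-fold in every level class. The imbalance was widest in the classes from 30 FPKM up, which hold few such genes. Among the 100 most abundant genes, 1 in each direction passed 2-fold. From 1 to 3 FPKM there were 29 higher and 41 lower genes, from 3 to 10 FPKM 17 and 32, and from 10 to 30 FPKM 6 and 19. From 30 to 100 FPKM there were 0 and 7, and at 100 FPKM and over 1 and 5. At 1.5-fold the 2 directions were closer, and from 10 to 30 FPKM the order turned, with 73 higher and 68 lower of 3498 genes. At 100 FPKM and over, 8 of 860 genes were 1.5-fold higher and 23 lower. The median log2 ratio of these classes lay between -0.03 (100 FPKM and over) and 0.02 (10 to 30 FPKM). Whether a class as a whole was shifted was not tested.

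**Figure D2:**
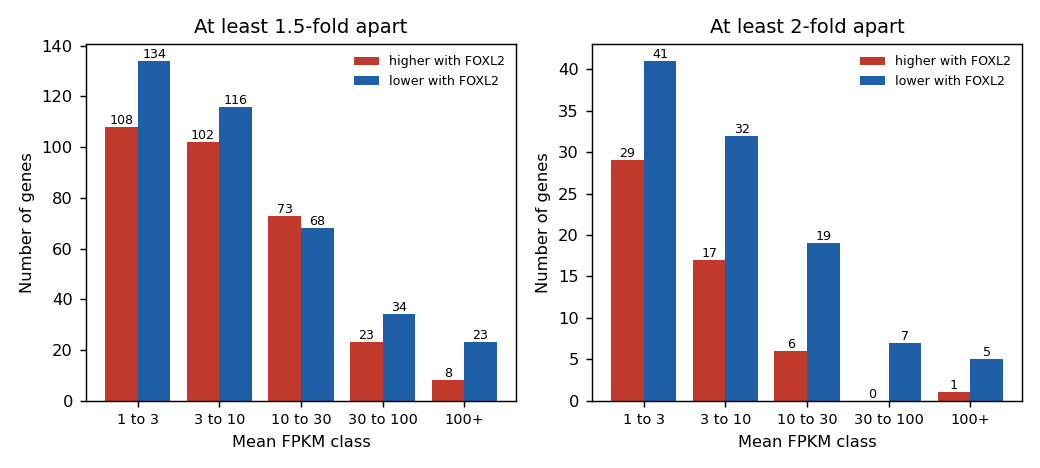
Bars give the number of genes at least 1.5-fold (left) or at least 2-fold (right) higher or lower with FOXL2 in preovulatory cells, by class of mean FPKM. At 2-fold the lower bar is the taller one in each class, from 41 against 29 genes at 1 to 3 FPKM to 5 against 1 at 100 FPKM and over.

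Most of the strongest ratios belonged to genes that 1 of the preovulatory tables lacks. Of the 8 genes at least 4-fold higher, 7 were missing from the control table, and the other one had 0.59 FPKM with control and 9.15 with FOXL2. The 8 genes had 3.10 to 28.7 FPKM with FOXL2. Of the 6 genes at least 4-fold lower, 4 were missing from the FOXL2 table, with 3.18 to 9 FPKM in the control. For a gene missing from a table no fold is given, since its level there is unknown. The gene with the highest ratio, 28.7 FPKM with FOXL2 in preovulatory cells, was missing from the other 3 tables, including that of the prehierarchical FOXL2 library. The next one, at 14.98 FPKM with FOXL2 and missing with control, had 3.22 FPKM in the prehierarchical control and was missing from the prehierarchical FOXL2 table. Among genes listed in both preovulatory tables, 1 was 4-fold higher and 2 were 4-fold lower.

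The abundant genes carry more fragments and are described individually. With a mean of at least 30 FPKM, 3640 genes were measured, of which 1 (0.0275%) was past 2-fold on the higher side and 12 (0.33%) on the lower side. The 2 highest and the 2 lowest ratios among them belong to the following identifiers, whose gene names are not in the files.

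ENSGALG00000021009 had 435.8 FPKM with control and 1194 FPKM with FOXL2 in preovulatory cells, 2.74 times as much and a log2 ratio of 1.45. By abundance it was the 132nd gene with control and the 32nd with FOXL2. In prehierarchical cells the same gene had 418.2 FPKM with control and 1747 with FOXL2, a log2 ratio of 2.06. Its 2 control values were close to each other, and both FOXL2 values lay above both control values.

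ENSGALG00000006689 came next on the higher side, with 46.2 FPKM with control and 88.9 with FOXL2, a log2 ratio of 0.93 that stays under 2-fold. In prehierarchical cells it had 76.3 FPKM with control and 40.7 with FOXL2, a log2 ratio of -0.89. The plasmid difference thus had opposite signs in the 2 cell types and a similar size.

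ENSGALG00000013033 had the lowest ratio, at 56.5 FPKM with control and 12.6 with FOXL2, which is 4.48 times less and a log2 ratio of -2.08. In prehierarchical cells it stood at 15.4 FPKM with control and 56.2 with FOXL2, a log2 ratio of 1.80. The 4 values form 2 levels, with the preovulatory control and the prehierarchical library with FOXL2 high and the other 2 low. The 2 high libraries are those whose headers carry an added number after the plasmid label.

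ENSGALG00000023933 was the next lowest, at 52.7 FPKM with control and 14.4 with FOXL2, 3.67 times less and a log2 ratio of -1.80. In prehierarchical cells its values were 235.8 and 592.6 FPKM, a log2 ratio of 1.33. Both prehierarchical values lay above both preovulatory values, and the sign of the plasmid difference again turned.

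The other abundant lower genes followed the same order in most cases. The 12 genes spanned 48.8 to 1912 FPKM with control and 12.6 to 866.7 with FOXL2, with log2 ratios from -2.08 to -1.01. The most abundant of them had 1912 FPKM with control and 866.7 with FOXL2, and 1731 and 2491 FPKM in the prehierarchical pair. Their summed level was 0.581% of the total FPKM with control and 0.262% with FOXL2. In prehierarchical cells 11 of the 12 were above control with FOXL2, 7 of them at least 2-fold, and their median log2 ratio was 1.18. Of all 3640 genes at this level, 48.5% were above control with FOXL2 in prehierarchical cells, 0.604% at least 2-fold, with a median of -0.01. By class, 64.5% of all genes at 100 FPKM and over were above control, as were 5 of 5 lower genes. At 30 to 100 FPKM it was 43.5% of all genes and 6 of 7 lower genes. The exception had 60.9 FPKM with control and 53.4 with FOXL2 in prehierarchical cells, a log2 ratio of -0.19.

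**Figure D3:**
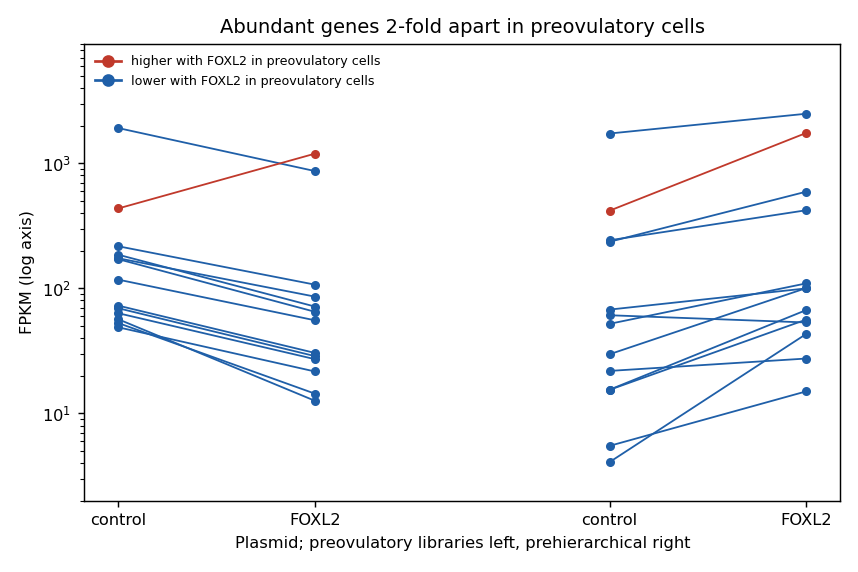
FPKM (log axis) in the 4 libraries of the 13 genes with a preovulatory mean of at least 30 FPKM that were at least 2-fold apart in preovulatory cells; a line joins the control and FOXL2 library of 1 cell type. The 12 blue lines go down on the left by selection, and 11 of them go up on the right; the red line, ENSGALG00000021009, goes up on both sides.

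The prehierarchical pair shares no library with the preovulatory pair, and its values were not used to choose the genes. Over the 104 genes that were 2-fold lower in preovulatory cells, the prehierarchical log2 ratio had a median of 0.54 (quartiles 0.06 and 1.28), with 82 above 0, 16 below 0 and 6 at 0. Over all retained genes its median was -0.05 and 42.2% were above 0. At least 2-fold higher with FOXL2 in prehierarchical cells were 30 of the 104 (28.8%), against 0.974% of all genes, and 3 were at least 2-fold lower (2.88%, against 0.611%). By level, the median went from 0.25 at 1 to 3 FPKM and 0.49 at 3 to 10 FPKM to 1.13 at 10 to 30, 1.30 at 30 to 100 and 1.06 at 100 FPKM and over. Over all genes of those classes, the medians ran from -0.09 to 0.05. Because genes of low level are more often 2-fold apart within either pair, the 2-fold shares are also given by class. At 1 to 3 FPKM, 8 of the 41 lower genes were 2-fold higher in prehierarchical cells, against 2.40% of all genes of that class. At 3 to 10 FPKM there were 5 of 32, against 1.18%, and at 10 to 30 FPKM 10 of 19, against 0.743%. At 30 to 100 FPKM there were 4 of 7, against 0.504%, and at 100 FPKM and over 3 of 5, against 0.930%.

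How the preovulatory and prehierarchical ratios relate over all retained genes was not analysed here. Opposite signs in the 2 cell types can therefore not be taken as particular to genes past 2-fold. The 53 genes that were 2-fold higher in preovulatory cells showed a smaller departure in median and signs. Their prehierarchical log2 ratio had a median of -0.12 (quartiles -0.75 and 0.19), with 20 above 0, 29 below 0 and 4 at 0. At least 2-fold lower there were 7 (13.2%, against 0.611% of all genes), and 3 were at least 2-fold higher (5.66%, against 0.974%). The largest class of higher genes, at 1 to 3 FPKM, had a prehierarchical median of -0.02, and the class at 3 to 10 FPKM one of -0.65. The 6 higher genes at 10 to 30 FPKM had a median of 0.01, with 3 above and 2 below 0, and the 1 gene at 100 FPKM and over, ENSGALG00000021009, was higher in both cell types. The 7 genes in question all had a preovulatory mean under 10 FPKM: 3 of 29 at 1 to 3 FPKM, against 2.24% of all genes of that class, and 4 of 17 at 3 to 10 FPKM, against 1.51%. The difference between the cell types has 1 library per combination of cell type and plasmid and was not tested. A difference between cultures cannot be told apart from a response that differs by cell type. Opposite signs in the 2 cell types set the preovulatory control and the prehierarchical FOXL2 libraries against the other 2. This is also the split by the added header numbers, so whatever those numbers stand for cannot be told apart from such a response either.

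The same lists can be read by their levels in the 4 libraries. The lower genes had medians of 6.53 FPKM in the preovulatory control, 1.85 in the preovulatory FOXL2 library, 1.79 in the prehierarchical control and 4.09 in the prehierarchical FOXL2 library. The higher genes had medians of 0.89, 4.46, 3.28 and 2.31 FPKM in the same order. Part of each list was scarce in the other cell type: 25 of the 104 lower and 9 of the 53 higher genes averaged below 1 FPKM there. Over all 10467 retained genes it was 376. Neither prehierarchical table listed 4 of the lower and 3 of the higher genes, against 25 of all retained genes. Genes with more than 1 listed transcript made up 5.77% of the lower list and 5.66% of the higher list, near the 5.25% of all genes.

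**Figure D4:**
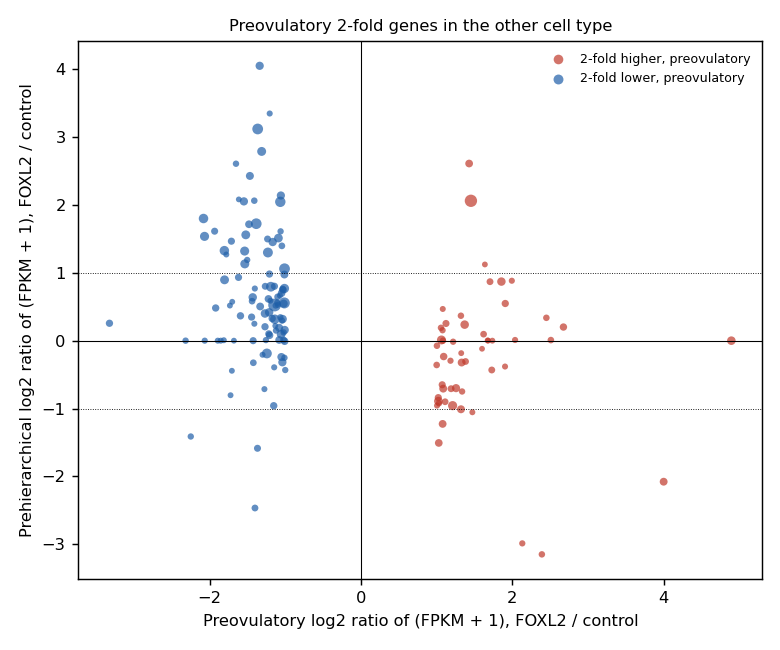
Each point is a gene past 2-fold with FOXL2, higher (53 genes, red) or lower (104 genes, blue), in preovulatory cells, with its preovulatory log2 ratio on the horizontal and its prehierarchical log2 ratio on the vertical axis; larger points have a higher preovulatory mean and dotted lines mark 2-fold. Of the blue points 82 lie above 0, and of the red points 29 lie below 0.

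The 10 most abundant genes had log2 ratios from -0.35 to 0.13, 6 of them below and 4 above control, and held 14.6% of all FPKM with control and 14.1% with FOXL2. The 100 most abundant genes held 31.4% and 30.5%. Of these genes, 65 were below and 35 above control, with a median log2 ratio of only -0.03 and a range from -1.14 to 1.45. Among them 3 were at least 1.5-fold lower and 3 at least 1.5-fold higher, of which 1 in each direction passed 2-fold. The largest loss of a single gene was from 12312 to 9633 FPKM, a log2 ratio of -0.35, for a gene at 2397 and 2648 FPKM in the prehierarchical control and FOXL2 libraries. The next was from 3756 to 2012 FPKM, a log2 ratio of -0.90, for a gene that stood at 1323 and 2734 FPKM in prehierarchical cells. The largest gains were from 8462 to 9287 FPKM and from 1159 to 1957 FPKM, log2 ratios of 0.13 and 0.75. The second of these genes had 927.2 FPKM with control and 581.9 with FOXL2 in prehierarchical cells. Summed FPKM was 540243 with control and 528405 with FOXL2, a log2 difference of -0.03.

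Around the limit of 1 FPKM, 10196 genes reached it in both preovulatory libraries, 286 in the control alone and 230 with FOXL2 alone. The highest FOXL2 value of a gene under 1 FPKM with control was 28.7 FPKM, and the highest control value of a gene under 1 FPKM with FOXL2 was 9 FPKM.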

How the data were processed

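Each deposited table holds the FPKM values of 1 library by Ensembl gene identifier, per the file headers. Bowtie, RSEM and genome build galGal4 are named in the submitters' processing notes, without version or parameters. RSEM divides fragments among similar transcripts, which makes genes with near-identical copies uncertain; strand use is not stated. The lowest listed value is 0.01 FPKM. Without fragment counts, the absolute depth is unknown.

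The preovulatory tables were joined on the gene identifier, with a missing gene taken as 0. The log2 ratio of (FPKM + 1) was computed for genes averaging at least 1 FPKM over the pair; it understates the change of low genes. With 1 library per group no test was run. Genes past 1.5-, 2- and 4-fold were counted with pandas 2.3.3 and numpy 2.4.6 under Python 3.11.15. The counting step was tested on simulated data with clear changes in well expressed genes only, which says nothing about genes of low level. Since 0 of 13819 identifiers matched the gene table, the 20 gene lists drawn up could not be used. Named genes are the 2 highest and 2 lowest ratios with a mean of at least 30 FPKM listed in both tables. Members and lists were chosen with earlier results of these data known. The alternatives were pseudocounts of 0.1 and 5 FPKM, no filter, a mean of 5 FPKM, a mean over all 4 libraries, median centring, rescaling to TPM and genes in both tables.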

Additional observations from a re-analysis of the deposited data

Results flagged for a closer look

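Of the 13 genes with a preovulatory mean of at least 30 FPKM that were 2-fold apart there, 7 were also at least 2-fold apart in prehierarchical cells with the opposite sign, among them 2 of the 4 named genes. For these 2, the prehierarchical minus preovulatory log2 ratio was 3.88 for ENSGALG00000013033 and 3.13 for ENSGALG00000023933. Of all 3640 genes at this level, 0.604% were at least 2-fold higher with FOXL2 in prehierarchical cells. Over all retained genes, 30 were at least 2-fold lower with FOXL2 in preovulatory and at least 2-fold higher in prehierarchical cells. They were 28.8% of the 104 lower genes, against 0.974% of all genes. The reverse pattern held for 7, 13.2% of the 53 higher genes, against 0.611% of all. In the same direction, 3 genes were 2-fold higher in both (5.66% of the higher genes, against 0.974%). Another 3 were 2-fold lower in both (2.88% of the lower genes, against 0.611%). The same-direction shares thus also lay above those of all genes. Each of these rests on 1 library per cell type and plasmid, and the difference between cell types was not tested.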

How the results depend on the processing

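The numbers of genes past a fold depended on how low values were treated. Against 53 higher and 104 lower genes at 2-fold, a pseudocount of 0.1 FPKM gave 122 and 184, one of 5 FPKM gave 7 and 20, and a mean of at least 5 FPKM gave 16 and 44. Rescaling to TPM, where the same pseudocount weighs less, gave 81 higher and 130 lower. At 4-fold, against 8 higher and 6 lower, the numbers were 24 and 34 with 0.1 FPKM, 1 and 0 with 5 FPKM, 2 and 2 with the mean of at least 5 FPKM, 18 and 19 after rescaling, and 1 and 2 with genes in both tables. Lower genes outnumbered higher ones at 2-fold under each of the 8 alternatives. All of them re-count the same pair of libraries, and median centring left both numbers unchanged. With a pseudocount of 5 FPKM, 57.1% of the 7 higher genes had a prehierarchical ratio above 0, against 37.7% of 53. No alternative turned the sign of a named gene's ratio. A pseudocount or a filter cannot turn a sign, and median centring left these ratios unchanged. Rescaling to TPM could not turn a sign either, since the log2 difference of summed FPKM, -0.03, is small beside these ratios. For each alternative the outcome was therefore fixed in advance. No paired analysis was possible because each group has 1 library, and no library could be left out.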
